A study of Mus musculus with 6 samples.

Results

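DNA methylation was examined at the 8 mouse genes that encode the nuclear receptors for thyroid hormone (Thra, Thrb) and for retinoids (Rara, Rarb, Rarg, Rxra, Rxrb, Rxrg). Their sites were all rows of the deposited table from 1 kb upstream of the gene start to the gene end in GENCODE M21, with strand taken into account. This gave 610 of the 890041 cytosines in the table, which belonged to 517 CpGs. The rule used gene names and positions and no methylation value. The values came from reduced representation bisulfite sequencing (RRBS), which cuts DNA at CCGG and so samples CpG-rich sequence. The tissue was micro-dissected dentate gyrus, the hippocampal region that makes new neurons in adult mice. Each of the 6 libraries came from a different female C57BL/6JRj mouse aged 4.5 months, 3 kept in standard cages (STD) and 3 in an enriched environment (ENR), a large enclosure shared by a bigger group with tunnels and toys. No transgene, deletion or drug was part of either group. Each value is the percentage of reads that were methylated at a cytosine, averaged over all cell types of the dissected tissue, so a change in cell composition and a change within cells cannot be told apart. RNA was not part of these data, and the tissue label could therefore not be checked against expressed markers.

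Nuclear receptors are transcription factors that bind a small hormone. Thyroid hormone receptors and retinoic acid receptors (RARs) usually sit on DNA as pairs with a retinoid X receptor (RXR), often at repeated copies of the sequence AGGTCA. Without hormone they recruit co-repressors, and with hormone they recruit co-activators. In the hippocampus both hormones are known for roles in neuronal differentiation and plasticity. In vertebrate genomes most CpGs are methylated, whereas CpG-rich promoters are usually free of methylation.

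Sites near transcription starts and sites in the gene bodies had very different levels. Within 1 kb of an annotated start, the 468 sites of the 8 genes had a mean of 3.05%, and the 142 sites farther away had a mean of 41.3%. In total 468 sites (76.7%) were under 10%, 61 (10%) lay between 20% and 80%, and 31 (5.08%) were over 80%. In the whole table these shares were 63.7%, 14.6% and 15.5%, so the receptor genes held more unmethylated and fewer fully methylated sites than the table at large, as a description. Introns held 327 of the sites, UTRs 192, upstream sequence 52, coding exons 36 and noncoding exons 3. Levels were lower where CpGs were denser. Over the 100 bases on each side, the CpGs observed were divided by the number expected from the base composition. Where this ratio reached 0.6, the mean was 5.57% (402 sites in 8 genes), and where it was under 0.2 it was 36.0% (16 sites in 6 genes). This relation is given with no test, since neighbouring sites share reads.

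The genes differed most in their bodies. Farther than 1 kb from any start, Thrb was at 93.3% (13 sites), Rarb at 80.1% (14 sites), Rarg at 73.4% (3 sites) and Rxrg at 65.9% (12 sites). The other bodies were far less methylated, with Rxra at 35.2% (18 sites), Rara at 24.2% (61 sites) and Thra at 19.6% (21 sites). All 82 sites of Rxrb lay near a start. Near the starts the 8 genes lay close together, from 1.45% in Rxrb to 4.96% in Rara.

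**Figure D1:**
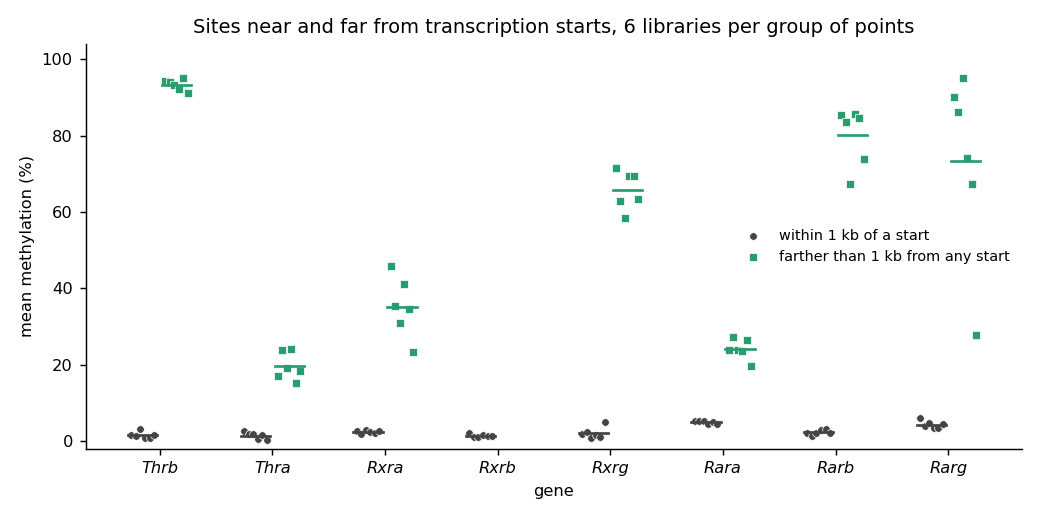
Mean methylation in percent (vertical axis) of sites within 1 kb of a transcription start (grey circles) and farther away (green squares) for the 8 genes (horizontal axis). Each point is 1 of the 6 libraries in the order STD replicates 1 to 3 and ENR replicates 1 to 3, and each line is the mean of the 6. Near starts every library lies under 10%, and Thrb has the highest body at 93.3%.

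The first comparison asked whether the mean over all sites of a gene differed between ENR and STD. It was lower in ENR in 6 of the 8 genes and higher in 2, and none passed the test. In limma, with Benjamini-Hochberg adjustment over 22934 genes, 0 genes were called anywhere in the table (0%), the smallest adjusted p-value was 0.939, and 886 genes were at an unadjusted p-value under 0.05. Of all tested genes, 57.6% were lower in ENR. The median difference over the 8 genes was -0.993 percentage points, and over all tested genes it was -0.194. Groups did not overlap in 2 of the 8 genes, Thrb and Rarg, both lower in ENR (25%), beside 5.43% of all genes. In the direction of higher ENR it was 0 of 8, beside 3.04% of all genes. Replicate 3 had the lowest mean of its group over all sites of the table, at 22.5% in STD and 21.3% in ENR, while the other 4 libraries lay between 23.9% and 24.3%. Over the receptor sites replicate 3 was again the lowest of each group, at 11.7% in STD and 10.6% in ENR. Without STD replicate 3 the gene differences ran from -2.69 to 0.284 points, with Thrb at -0.495, Rxrg at 0.284 and Rarb at -0.365. Without ENR replicate 3 they ran from -2.37 to 2.99 points, with Rara at -0.399 and Rxra at -0.191.

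**Figure D2:**
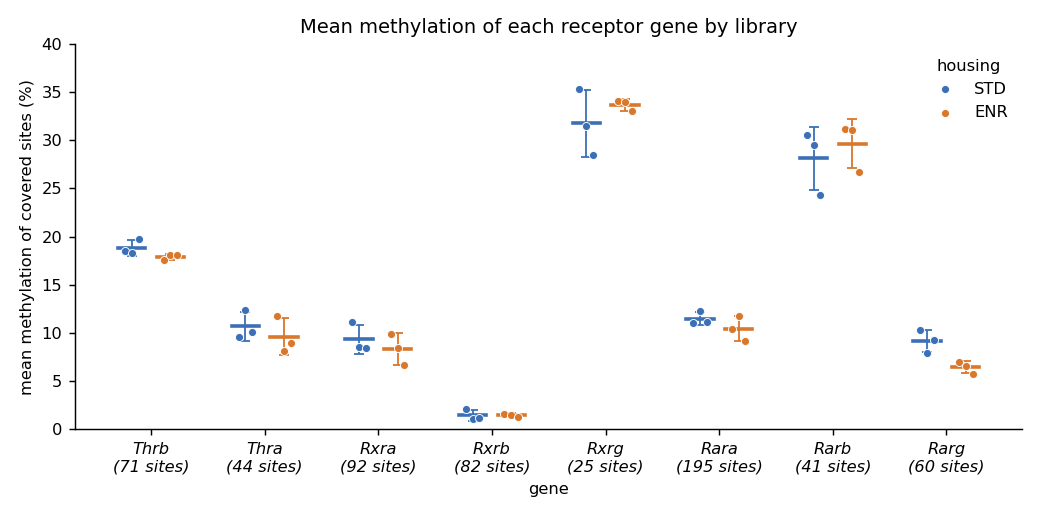
Mean methylation in percent over all covered sites (vertical axis) of each of the 8 receptor genes (horizontal axis), by library. Points are single mice, short horizontal lines are group means and error bars are 1 SD (n = 3), with STD in blue and ENR in orange. The groups separate in Thrb and Rarg, and Rxrb stays under 2.5% in all 6 libraries.

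Thyroid hormone receptor beta, encoded by Thrb (ENSMUSG00000021779.17, chromosome 14, 17660261 to 18038090, plus strand, 71 sites), was at 18.5%, 18.3% and 19.8% in the STD libraries and at 17.5%, 18.1% and 18.1% in the ENR libraries. The ENR values lay just under the lowest STD value, a gap smaller than the spread within STD. The difference of -0.954 percentage points had a standard error of 1.15 (limma, unadjusted p = 0.437, adjusted p = 1.0), and without STD replicate 3 it was -0.495. Of its sites, 58 lay at the upstream cluster of starts and 13 in the body, and none lay between 10% and 80%. At that cluster of starts the means were 2.03% in STD and 1.10% in ENR (SDs of 1.09 and 0.485, n = 3 each), with overlapping groups, and the difference went from -0.930 to -0.304 points without STD replicate 3. The 13 body sites were at 93.9% and 92.8%. The downstream starts of Thrb, used by 1 annotated transcript each, had 0 covered sites. One site had groups that did not overlap, at position 17884982 in an intron that also holds the gene Gm24140. It was at 94.9%, 85.5% and 92.2% in STD and at 80.9%, 84.1% and 73.3% in ENR.

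Thyroid hormone receptor alpha, encoded by Thra (ENSMUSG00000058756.13, chromosome 11, 98740638 to 98769006, plus strand, 44 sites) and the form that prevails in most of the brain, was at 9.56%, 12.4% and 10.1% in STD and at 11.8%, 8.14% and 8.93% in ENR. These groups overlapped, and the difference was -1.07 percentage points (limma, unadjusted p = 0.433). With 1 library left out it ran from -2.15 (without ENR replicate 1) to -0.234 (without STD replicate 2), and it was -0.338 without ENR replicate 2 and -1.64 without STD replicate 1. Its main cluster of coding starts, from 98741811 to 98742158, behaved differently from the gene mean in that the groups separated. There the 23 sites within 1 kb were at 2.61%, 1.85% and 1.97% in STD and at 0.507%, 1.58% and 0.311% in ENR. That difference of -1.34 percentage points (SE 0.490) had an unadjusted p of 0.0263 and an adjusted p of 0.999 in limma. With 1 library left out it ran from -1.74 to -1.10 points. The same 23 sites, tested among the patches described below, had an unadjusted p of 0.0596 in limma (SE 0.600). The window of noncoding starts just upstream shares 6 of these sites and was at 1.71% and 1.51%. At the far end of Thra, 6 sites in a coding exon also lie in Nr1d1, the clock repressor transcribed from the opposite strand, and were at 11.7% on average. Single sites of Thra had 0 cases of groups that did not overlap.

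The retinoid X receptors are the shared partners of both families. Rxra (ENSMUSG00000015846.14, chromosome 2, 27676440 to 27762957, plus strand, 92 sites) was at 11.1%, 8.51% and 8.47% in STD and at 9.92%, 8.42% and 6.65% in ENR. The groups overlapped, with a difference of -1.03 percentage points (limma, unadjusted p = 0.412). It was -0.159 without STD replicate 1, -0.191 without ENR replicate 3 and -1.83 without ENR replicate 1. Its upstream start window went from 2.97% in STD to 1.70% in ENR and the neighbouring main window from 2.38% to 1.85%. An internal start of a noncoding transcript at 27740201 (5 sites) went the other way, from 4.71% in STD to 9.13% in ENR (SDs of 3.48 and 3.59, n = 3 each). All 3 windows had overlapping groups. Without STD replicate 3 their differences moved from -1.27 to -0.609, from -0.527 to -0.156 and from 4.42 to 2.55 points. Without STD replicate 2 the first 2 were -2.03 and -0.844, and without ENR replicate 1 the internal one was 2.90. A cluster of 10 intronic sites from 27750741 to 27750968 was at an intermediate level of 56.7% in STD and 47.2% in ENR, again with overlap, and it held the 1 Rxra site that differed by more than 25 points. That site, 27750844, was at 70.0%, 54.5% and 38.1% in STD and at 44.4%, 6.67% and 36.4% in ENR. Averaged with the other strand of the same CpG, its difference shrank from -25.1 to -16.9 points. On its own strand the site differed by -13.8 points without ENR replicate 2.

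Rxrb (ENSMUSG00000039656.17, chromosome 17, 34031812 to 34038399, plus strand, 82 sites) was the least methylated member and the most densely covered, with 10.8 sites per kb. It was at 2.15%, 1.09% and 1.14% in STD and at 1.62%, 1.47% and 1.23% in ENR, a difference of -0.0145 points (limma, unadjusted p = 0.972). All of its sites lay in 1 start window, and 28 of them also lie in the neighbouring zinc transporter gene Slc39a7, whose annotation reaches into the upstream sequence of Rxrb. At 50 of its sites the group means were equal.

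Rxrg (ENSMUSG00000015843.10, chromosome 1, 167598384 to 167639623, plus strand) had the fewest sites, 25, and the highest gene mean. It was at 35.3%, 31.5% and 28.5% in STD and at 34.1%, 33.9% and 33.0% in ENR. The difference of 1.93 points was smaller than the SD of STD, 3.44. It was 0.284 without STD replicate 3 and 3.72 without STD replicate 1, and its direction turned to -5.03 when the median over sites replaced the mean. The 13 sites near its upstream start were at 1.73% and 2.51%. In its body, levels stepped from 93.7% in 4 intronic sites (167626668 to 167626827) to 30.3% in the 4 sites nearest the gene end (167638918 to 167639013). The first of these clusters was at 95.4%, 97.7% and 96.8% in STD and at 95.3%, 94.6% and 82.1% in ENR, and without ENR replicate 3 its difference shrank from -5.95 to -1.65 points. At the CpG that opens the second cluster the strands went in opposite directions. The plus-strand site 167638918 was at 24.0%, 23.1% and 9.09% in STD and at 25%, 31.8% and 37.8% in ENR, a difference that went from 12.8 to 8.01 points without STD replicate 3. The minus-strand site 1 base on was at 30.3%, 18.8% and 0% in STD and at 0% in all 3 ENR libraries. Averaged over strands, the CpG differed by -1.76 points.

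Starts were then compared one by one, because nuclear receptor genes use alternative promoters for different isoforms. The 8 genes had 30 start windows (1 kb on each side, starts within 500 bases joined). Of these, 15 had at least 3 sites and a mean that varied and could be tested, 14 had 0 sites and 1 had a single site. All 15 tested windows were under 10%, with a median of 2.33%, beside 2.10% over 25275 windows of the table. In limma 0 windows were called in the table (0%), 1140 were at an unadjusted p-value under 0.05 and the smallest adjusted p-value was 0.894. Groups did not overlap, with ENR lower, in 2 of the 15 (13.3%, beside 5.70% of all windows), the coding starts of Thra and the second start of Rara. With ENR higher it was 1 of 15 (6.67%, beside 3.88%), the downstream promoter of Rarb. Start windows that lie close together share sites and are not independent. Of the 15 RefSeq promoters of 7 member genes (300 bases each, GRCm38), 9 had a covered CpG and a median of 21 CpGs, and the other 6 a median of 7.5. The ranges overlapped, since a covered promoter had as few as 5 CpGs and one without coverage as many as 13.

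Rarb (ENSMUSG00000017491.9, chromosome 14, 16430839 to 16819156, minus strand, 41 sites) encodes the RAR whose downstream promoter is the classical example of a retinoic acid target. The gene was at 30.5%, 29.5% and 24.3% in STD and at 31.2%, 31.0% and 26.7% in ENR. The difference of 1.52 points had a standard error of 2.53 (limma, unadjusted p = 0.569), and without STD replicate 3 it turned to -0.365. The first, upstream start of Rarb had 0 covered sites, so that promoter was not measured. The 27 sites at the downstream promoter were at 2.08%, 1.41% and 2.09% in STD and at 2.93%, 3.28% and 2.25% in ENR. The ENR libraries thus all lay above the STD ones, by 0.956 points on average (limma, unadjusted p = 0.153, adjusted p = 0.999). The largest single difference without overlap was at 16574885, in a coding exon 160 bases downstream of the start at 16575045. This site was at 0%, 12.4% and 6.94% in STD and at 20.3%, 13.2% and 13.8% in ENR. Its difference fell from 9.32 to 6.10 points without STD replicate 1.

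The retinoic acid response element of Rarb could be located among these sites. The pattern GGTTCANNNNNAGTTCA, the form of the element in Rarb itself, was searched on both strands of RefSeq promoters (GRCm38, 300 bases around each start). It was found in 2 of 32544 promoters (0.00615%), and 1 of them was Rarb. Because the pattern was that of the Rarb element, this match was set in advance and serves only to place the element. The search covered the same 15 promoters of member genes. The other patterns searched were AGGTCA repeated in the same direction with gaps of 1 base (AGGTCANAGGTCA), 4 bases (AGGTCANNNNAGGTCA) or 5 bases (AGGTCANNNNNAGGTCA). They occurred in 0.0399%, 0.0154% and 0.00922% of all promoters and in 0 of the 15. No pattern overlapped the Rarb match. The element is shown with 6 flanking bases on each side, on the minus strand (GRCm38, chr14:16575507-16575535), because a CpG lies in its spacer. Capitals mark both half-sites:
Rarb element: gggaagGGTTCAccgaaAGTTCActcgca
The spacer CpG was covered on the minus strand at 16575522. It was at 0%, 0% and 6.67% in STD and at 0% in all ENR libraries. The 3 covered sites within 30 bases of the element had means from 0.952% to 6.81%, all in the unmethylated range of the promoter. Matching letters do not show that a receptor was bound.

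Rara (ENSMUSG00000037992.16, chromosome 11, 98927818 to 98974942, plus strand) encodes the most broadly expressed RAR and held 195 of the 610 sites. It was at 11.1%, 12.2% and 11.1% in STD and at 10.4%, 11.7% and 9.17% in ENR, a difference of -1.04 points (SE 0.950) with overlap (limma, unadjusted p = 0.315). It was -0.399 without ENR replicate 3, -0.659 without STD replicate 2 and -1.68 without ENR replicate 2. Its 5 starts had different levels. The first start was at 7.13% and 7.28%, the fifth at 4.55% and 4.78%, and the third, whose window holds just the unmethylated core of the promoter, at 1.24% and 1.90%. The fourth start had 1 site, at 20.5% and 16.2%. At the second start (98937698 to 98937718) the 54 sites were at 5.41%, 5.18% and 6.02% in STD and at 3.10%, 4.31% and 3.18% in ENR, so that the groups separated (-2.01 points, SE 0.875, limma unadjusted p = 0.0523, adjusted p = 0.999). That difference depended on the width of the window. With 500 bases on each side it was 0.664 points in the opposite direction, a value shared with the third start, where it was 0.284 without STD replicate 2.

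The sites that made this difference lay upstream of the second start. To describe them, neighbouring sites of the whole table at most 200 bases apart were joined into patches, an analysis added after the site values had been seen. Of 71381 patches tested, limma called 0, with 2853 at an unadjusted p-value under 0.05. The receptor genes had 44 tested patches. Groups did not overlap, with ENR lower, in 5 of them (11.4%, beside 5.35% of all patches), which lay in Thra, Rxrg, Rara, Rarb and Rarg. With ENR higher it was 0 of 44, beside 3.46%. The Thra patch holds the same 23 sites as the window of its coding starts, and the Rara patch lies inside the window of the second start. Both thus repeat part of the count of windows. The largest of these 5 differences was in Rara, at 98937030 to 98937175, from -668 to -523 relative to the second start. Its 5 sites averaged 13.2%, 24.3% and 21.4% in STD and 6.32%, 6.59% and 7.22% in ENR. The 3 ENR mice were close together and all below the lowest STD mouse. The difference was -12.9 points (SE 3.26, limma unadjusted p = 0.00535, adjusted p = 1), and it ran from -16.1 to -10.6 when each library was left out in turn.

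Of the 5 sites of that patch, 4 were lower in ENR on average, and the groups separated at 2 of them. Site 98937071 was at 34.3%, 36.3% and 30% in STD and at 3.95%, 10.7% and 19.5% in ENR. Site 98937090, 19 bases on, was at 22%, 36.5% and 22.9% in STD and at 1.32%, 0% and 11.4% in ENR. Neither had groups that overlapped, and both are close enough to be read on the same fragment. Site 98937030, the first of the patch, was at 9.52%, 48.5% and 14% in STD and at 0%, 22.2% and 3.70% in ENR, with overlap. The CpG at the end of the patch was at 0% in all 6 libraries on the plus strand (98937174). On its minus strand (98937175) it was at 0%, 0% and 40% in STD and at 26.3%, 0% and 1.52% in ENR, also with overlap.

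Farther upstream, 14 sites from 98936543 to 98936802 were at an intermediate level, with 33.1%, 34.5% and 37.0% in STD and 27.4%, 35.1% and 24.0% in ENR. As a whole this patch had overlapping groups (-6.07 points). It held all 3 Rara sites that were lower by more than 25 points, which belonged to neighbouring CpGs. Site 98936721 was at 39.7%, 61.8% and 28.3% in STD and at 3.57%, 38.9% and 0% in ENR. On the other strand of that CpG the values were 46.0%, 28.6% and 21.7% in STD and 0%, 19.0% and 0% in ENR. Site 98936729 was at 55.4%, 46.4% and 27.7% in STD and at 5.26%, 25% and 0% in ENR. Both strands and the next CpG thus went the same way, while the 10 sites of the patch that lie before them had overlapping groups with 1 exception, 98936564. Both stretches are shown because they hold the sites that carry the difference of the second start. The window of that start begins at 98936698, so the 10 earlier sites of the upstream stretch lie outside it. The stretches are plus strand, GRCm38, inside an intron of the transcript from the first start, with covered CpGs in capitals. The upstream stretch is chr11:98936533-98936812 and the proximal one chr11:98937020-98937185.
Rara upstream stretch: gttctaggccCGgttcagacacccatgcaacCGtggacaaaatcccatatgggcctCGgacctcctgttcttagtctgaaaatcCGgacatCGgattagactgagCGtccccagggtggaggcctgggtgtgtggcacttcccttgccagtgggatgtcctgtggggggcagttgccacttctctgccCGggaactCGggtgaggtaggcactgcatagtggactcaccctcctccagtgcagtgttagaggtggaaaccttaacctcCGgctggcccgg
Rara proximal stretch: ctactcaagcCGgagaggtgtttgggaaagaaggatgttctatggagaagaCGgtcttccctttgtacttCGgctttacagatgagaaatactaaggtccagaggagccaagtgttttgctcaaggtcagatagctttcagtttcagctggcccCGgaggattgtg
The upstream stretch has 9 covered CpGs of 10 and the proximal one 4 of 4. CpGs were thus sparse here, in contrast to the unmethylated core of the promoter, where 45 sites from 98937443 to 98938040 were at 1.24% in STD and 1.90% in ENR.

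**Figure D3:**
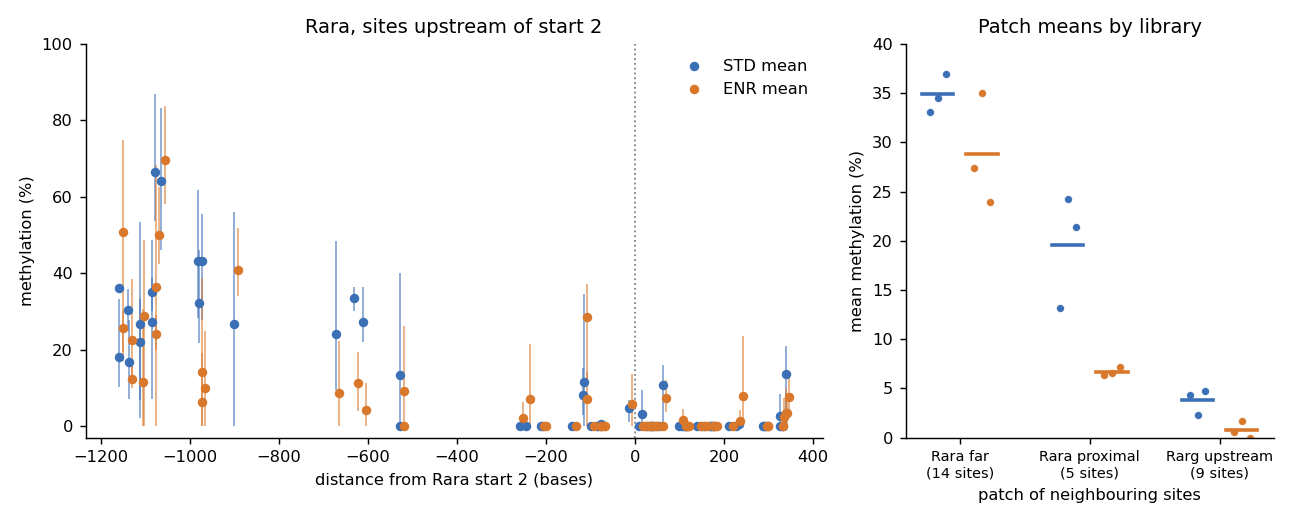
Left: methylation in percent (vertical axis) of single Rara sites against the distance in bases from the second transcription start (horizontal axis). Points are group means and thin lines span the lowest and highest of 3 libraries, with STD in blue and ENR in orange. Right: patch means in percent by library for the far and proximal Rara patches and the upstream Rarg patch, with lines for group means. The proximal Rara patch lies between 13.2% and 24.3% in STD and between 6.32% and 7.22% in ENR.

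The same distance range was then averaged over all 8 genes. From 1000 to 500 bases upstream of the nearest start, 39 sites averaged 9.54%, 8.68% and 8.40% in STD and 4.25%, 7.12% and 4.35% in ENR, without overlap. In the 500 bases next to the start on the upstream side (135 sites) the values were 2.16% and 1.82%, and on the downstream side (265 sites) 2.47% and 2.31%, both with overlap. From 500 to 1000 bases downstream (29 sites) they were 8.43% and 8.72%, the other way round and with overlap. Of the 39 upstream sites, 29 belonged to Rara (10.3% and 6.35%) and the other 10 had overlapping groups (4.70% and 2.01%). The Rara sites include 8 described above, those of the proximal patch and those over 25 points, at 27.1% in STD and 8.02% in ENR. The remaining 31 sites were at 4.18% and 4.52%, with overlap and in the other direction. Because the 8 sites were chosen for their difference, leaving them out had to shrink that of the range, and nothing is read from the remainder. No test was made of this range.

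Rarg (ENSMUSG00000001288.15, chromosome 15, 102234938 to 102257517, minus strand, 60 sites) encodes the third RAR and showed the lowest p-value of the 8 genes. It was at 10.3%, 7.96% and 9.23% in STD and at 6.97%, 6.59% and 5.73% in ENR. Every ENR mouse lay below every STD mouse, by 2.72 points on average. The difference of -2.72 had a standard error of 0.806 (limma, unadjusted p = 0.0137, adjusted p = 1.0), and it ran from -3.32 to -2.16 with each library left out. The 57 sites near starts differed less, with 4.88% in STD and 3.80% in ENR and overlapping groups. The first start was at 4.27% and 3.49%, and the third at 9.99% and 6.47% (SDs of 8.84 and 2.17, n = 3 each). The difference at the third start turned from -3.52 to 0.811 points without STD replicate 1 and was -8.02 without STD replicate 3. At the first start it went from -0.786 to -0.347 without STD replicate 3 and to -1.39 without STD replicate 2. Just upstream of the first start, 9 sites from 102257654 to 102257853 were at 4.30%, 2.30% and 4.77% in STD and at 0.542%, 1.74% and 0% in ENR (-3.03 points, SE 0.880, limma unadjusted p = 0.0106, adjusted p = 1).

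Much of the Rarg gene difference came from few sites. The 3 of its 60 sites farther than 1 kb from any start were at 90.5% in STD and 56.4% in ENR. Of these, 2 neighbouring intronic sites differed most, so the gene mean and its p-value rest in large part on them. Site 102240698 was at 90.9%, 83.3% and 85.2% in STD and at 66.2%, 33.3% and 0% in ENR. Site 102240717, 19 bases away, was at 85.9%, 86.4% and 100% in STD and at 67.2%, 75% and 0% in ENR. Methylation was thus high in all 3 STD mice, lower in ENR replicates 1 and 2 and absent from the reads of ENR replicate 3. The differences were -53.3 points (limma, unadjusted p = 0.0146, adjusted p = 0.852) and -43.4 points (unadjusted p = 0.0535). Without ENR replicate 3 they were -36.7 and -19.7 points, and groups still did not overlap at either site. The third body site, 102238334, was at 94.1% and 88.6% with overlap. The stretch around the pair is shown because it holds the largest differences among the receptor sites that were lower in ENR. It is plus strand, GRCm38, chr15:102240658-102240757, 2872 and 2891 bases inside the transcript from the last start, with both covered CpGs in capitals and no other CpG.
Rarg intron stretch: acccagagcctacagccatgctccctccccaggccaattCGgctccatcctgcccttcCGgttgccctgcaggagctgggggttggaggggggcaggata

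Single sites were last counted over all 8 genes. Of 610 sites, 6 were lower in ENR by more than 25 points (3 in Rara, 2 in Rarg, 1 in Rxra) and 1 was higher (Rara). These were 0.984% and 0.164% of the sites, beside 1.23% and 0.706% of all sites in the table, so both shares lay under those of the table. The total of 7 became 14 without STD replicate 1, 14 without ENR replicate 1 and 11 without ENR replicate 3. Without the last of these, 6 were lower and 5 higher. Of the 392 sites that varied, groups did not overlap with ENR lower at 16 (4.08%, beside 3.38% of all sites that varied) and with ENR higher at 7 (1.79%, beside 2.39%). In limma 0 of 615152 sites were called (0%), with 16498 at an unadjusted p-value under 0.05. Of the 392 receptor sites that varied, 9 were under 0.05, a share slightly below that of all sites tested. The smallest adjusted p-value was 0.852.

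The 1 site that was higher by more than 25 points lay in the UTR at the gene end of Rara, at 98973856 on the minus strand. It was at 50%, 72.7% and 0% in STD and at 75%, 79.4% and 100% in ENR. Without STD replicate 3 its difference fell from 43.9 to 23.4 points. The 7 sites of its patch were at 49.6% in STD and 55.3% in ENR with overlap, so the neighbours did not move as it did. The sites named outside the stretches above are shown with 30 bases of the plus strand each, because they were the largest differences without overlap of Thrb, Rxrg and Rarb and the sites over 25 points of Rxra and of the Rara UTR. In Thrb, Rxrg and Rarb other sites, with overlapping groups, differed by more. The measured CpG is in capitals (GRCm38). The Thrb site is in chr14:17884968-17884997, the Rxrg site in chr1:167638904-167638933, the Rxra site in chr2:27750829-27750858, the Rarb site in chr14:16574871-16574900 and the Rara UTR site in chr11:98973841-98973870.
Thrb 17884982: gactcagggaaggtCGtcctcttcgaccga
Rxrg 167638918: gtgctgtgggagccCGgttcttttaacaca
Rxra 27750844: gccacagtcagcccCGgaataactttgagc
Rarb 16574885: ccggtgctgccattCGgcctgggtgaatcc
Rara 98973856: ggcatcgggccaggCGttgagccacatgag

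**Figure D4:**
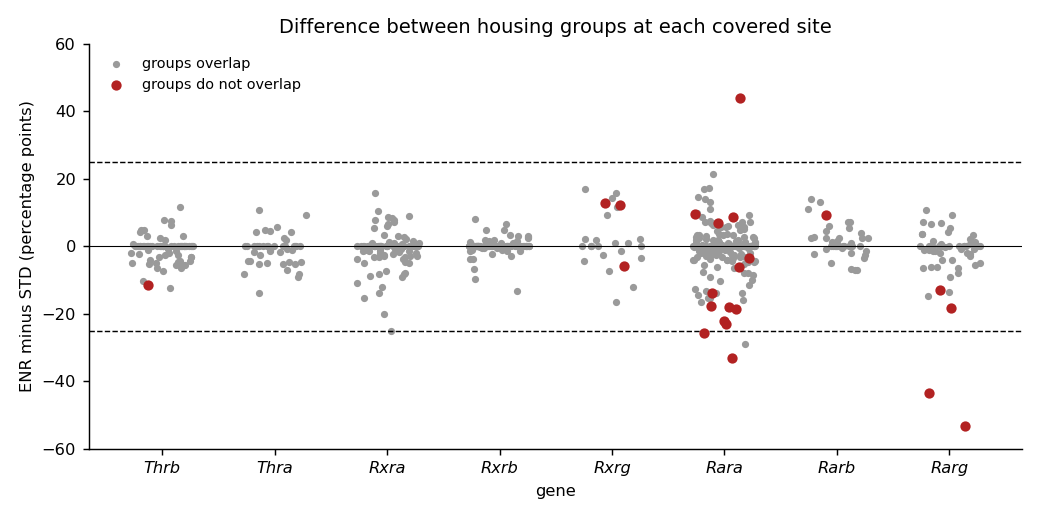
Difference of group means, ENR minus STD, in percentage points (vertical axis) for each of the 610 sites, by gene (horizontal axis, points spread sideways for legibility). Red points mark sites whose groups did not overlap and dashed lines mark 25 points in each direction. The lowest points are the Rarg intron sites at -53.3 and -43.4, and the highest is the Rara UTR site at 43.9.

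Genes that supply the hormones, co-regulators and the other nuclear receptors were compared in the same test of gene means, and limma called 0 in each list. Of 8 tested genes of thyroid hormone supply and action, 4 were lower and 4 higher in ENR. Dio3, the deiodinase that inactivates thyroid hormone, was at 1.45% in STD and 0.848% in ENR without overlap (unadjusted p = 0.0799 in limma). The transporter gene Slc16a10 was at 19.9% and 17.8%. Dio2, the deiodinase that produces the active hormone, was the most methylated of the list, with 68.8% and 70.1%.

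Of 12 tested genes of retinoid supply and action, 8 were lower and 4 higher. Dhrs3, a retinal reductase, was the least methylated at 1.26% and 0.682%, and Stra6, the retinol uptake receptor, the most methylated at 25.4% and 23.0%. Cyp26a1, which degrades retinoic acid, was at 4.53% and 3.82%. Of 7 co-regulators, 3 were lower and 4 higher, from the co-repressor Ncor1 at 1.52% and 1.89% to the co-activator Ncoa1 at 15.3% and 18.2%. The deacetylase Hdac3 was at 0.993% and 3.16% and the co-activator Ncoa3 at 5.67% and 4.40%, both with overlap.

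Of 36 other nuclear receptors tested, 21 were lower and 15 higher, and 1 was at an unadjusted p-value under 0.05. This was Nr2f1, an orphan receptor that patterns the cortex and hippocampus, with 1.88%, 1.42% and 1.11% in STD and 2.61%, 4.32% and 2.53% in ENR (limma, unadjusted p = 0.0265, adjusted p = 1.0). The activity-induced receptor gene Nr4a3 was at 5.33% and 4.56%. The range ran from Pgr, the progesterone receptor, at 1.55% to Nr2c1 at 90.7%, which is wider than that of the 8 thyroid hormone and retinoid receptors, whose gene means ran from 1.45% to 32.7%. The median gene mean was 14.5% in the other nuclear receptors, 10.6% in the 8 genes and 11.1% over all tested genes.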

How the data were processed

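The deposited table gives the percent of reads methylated at each cytosine in 6 RRBS libraries. Per the labels and methods, the authors trimmed reads with Trim Galore, aligned them to mm10 with Bismark and used methylKit to keep cytosines covered by at least 10 reads, without the most deeply covered ones. Read numbers per site were not used here, so depth is unknown beyond that minimum, no interval for counting error is given, and a thinly covered site weighs as much as a deep one. The study's test on reads could not be run on percentages. 0 columns of per-library values were left out.

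Sites were averaged per gene of GENCODE M21 (1 kb upstream to gene end), per start window and per patch. Those with at least 3 sites and a mean that varied between libraries were tested. The comparison was of 3 STD with 3 ENR mice on percentages. The test was limma (version 3.58.1, under R 4.3.3) with lmFit and a trended eBayes, adjusted by Benjamini-Hochberg over every feature of the table. The procedure was tested on simulated data. All 610 receptor positions were CpGs in the GRCm38 reference. In the 93 CpGs read on both strands, the strands differed by a median of 1.35 points. In 10 of these pairs they were over 10 points apart, and the largest difference was 21.5 points.

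Deviations of same-numbered STD and ENR libraries from their group means correlated over genes (0.157, 0.130 and 0.322 for numbers 1 to 3), so the number was also used as a replicate block. Numbers 1 and 2 were hardly distinguishable, since STD1 with ENR2 gave 0.121 and STD2 with ENR1 gave 0.109, and number 3 stood apart. The pairing comes from this check alone, since the labels do not say that a number marks a shared cage or day.

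The 8 genes, the gene lists and the naming rule were chosen with earlier results of these data known. All members and tested start windows were named, with, per gene, the site of largest difference without overlap and up to 3 sites over 25 points. Of each gene list, the lowest p-values and the least and most methylated gene were named.

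Alternatives changed the scale, the variance model, normalization, the averaging of sites and strands, the size of windows, the least number of sites and the limit in points, or left out each library in turn. Patches were added after seeing the data.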

Additional observations from a re-analysis of the deposited data

How the results depend on the processing

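No alternative called a receptor gene, start window, patch or site in limma. Genes, sites and patches stayed at 0 calls under every alternative run, and start windows at 0 except on the arcsine scale, which called 1, in Alox5. With the replicate number as a replicate block the calls were 0 at each level, so the replicate block changed no call, and Rarg still differed by -2.72 points (unadjusted p = 0.0182). Of the receptor sites, 7 differed by over 25 points. Counting those over 20 gave 11, those over 40 gave 3, using medians of each group gave 11, and leaving out each library gave from 9 to 14. The cause was not tested. Read depth at each site is unknown, and the smallest difference that could be detected was not measured.

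Directions turned in results that passed no test. The Rxrg gene mean differed by -5.03 points as a median over sites, and Thrb, Rxra, Rxrb and Rarg gave no value there because their median did not vary. Rxrb was at 0.000754 on the arcsine scale and 0.202 after quantile normalization, for the gene and for its start window, which hold the same sites, and 0.0991 with 500 bases around the start. With 500 bases, the second start of Rara differed by 0.664 and the fifth by -1.09. The first start of Thra differed by 0.226 after quantile normalization, and the Rxrg site 167638918 by -1.76 with strands averaged. With each library left out, the range was -0.365 to 2.99 for the Rarb gene, -0.200 to 0.330 for Rxrb, -1.51 to 1.28 for the first and -0.204 to 0.617 for the fifth start of Rara, -8.02 to 0.811 for the third start of Rarg, -0.414 to 1.46 for the start of Rxrg and -0.694 to 0.140 for the first start of Thra.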
